A study of Mus musculus with 125 samples.

Results

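The 10 genes described here are components of the Notch pathway in mouse endothelium: the ligands Dll4, Dll1, Jag1 and Jag2, the receptors Notch1 and Notch4, the transcriptional targets Hey1, Hey2 and Hes1, and Nrarp, a target that feeds back on the pathway. They were chosen by symbol, with no measured value in the rule, and make up 10 of the 21887 protein-coding genes that could be placed on the chromosomes. Each was read in 2 ways. Open chromatin was taken from the peaks that overlap the gene or lie within 50 kb of it (build mm10), and transcripts from the unique molecular identifiers (UMIs, each a counted RNA molecule) of single cells from brain.

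The series compared endothelial nuclei with the nuclei of the whole tissue, called input, by ATAC-seq, which marks DNA that a transposase can reach. There were 37 endothelial and 29 input libraries from labelled ages E12, P6 and Adult. At E12 brain, heart and trunk gave 11 endothelial and 3 input libraries, the latter 1 per organ, at P6 brain, heart, kidney, liver, lung and retina gave 14 and 16, and from adults of 2 months the same organs gave 12 and 10. All these mice, input included, received tamoxifen at 0.015 mg/kg body weight, given to the dam before birth for E12, to pups for P6 and a week before collection in adults, which switched on green fluorescent protein in the vasculature. The labels used here name neither the strain nor the driver of the reporter, and the protocol places the tissue of the libraries labelled P6 at postnatal day 7. The single cells came from untreated brain as far as the labels say, with 1 library per age: whole brain at E9.5, E12.5 and E16.5, dissociated with collagenase, and cortex at P8 and in adults, dissociated with a neural tissue kit. CD31-bound cells were collected with magnetic beads in all 5. A barcode was taken as endothelial when it held at least 200 genes, at most 10% mitochondrial UMIs and at least 3 of the endothelial genes Cdh5, Pecam1, Egfl7, Esam, Tie1 and Kdr. That kept 5644 of 17176 barcodes at E9.5, 6347 of 8310 at E12.5, 3786 of 3997 at E16.5, 4778 of 7305 at P8 and 3154 of 5552 in the adult.

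Notch receptors are cut when a ligand on a neighbouring cell pulls on them, and the freed intracellular part enters the nucleus, where it joins the DNA-binding protein Rbpj and switches on Hes and Hey genes, which encode repressors. In growing vessels Dll4 on the leading tip cell activates Notch1 in the cells behind it and restrains their sprouting, while Jag1 competes with Dll4. The pathway is also known for its role in arterial identity, with Hey1 and Hey2 among its arterial effectors.

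Promoter sequences were taken from RefSeq on GRCm38.p6, as the 250 bases before each gene start. The table held 9 entries for 8 of the 10 genes, Dll1 having 2, and none for Hey1 or Hes1. A set of 4 is printed because the open-chromatin results below turn on them. The Notch4 start held a peak in every endothelial library but in only part of the input libraries. Dll4 had the most tiles of 500 bases open more often in endothelium. Nrarp was among the genes called at each age, and Hey2, like Dll1, was called at none. Capitals mark matches, on either strand, to the short motifs searched, which were TGGGAA (bound by RBPJ), CCGGAA (ETS), AACAAT (SOX), CACGTG (E-box) and CACGCG (class C site, bound by Hes proteins), none of which overlapped another.
Notch4 promoter, chr17:34564045-34564294, plus strand, 0 matches: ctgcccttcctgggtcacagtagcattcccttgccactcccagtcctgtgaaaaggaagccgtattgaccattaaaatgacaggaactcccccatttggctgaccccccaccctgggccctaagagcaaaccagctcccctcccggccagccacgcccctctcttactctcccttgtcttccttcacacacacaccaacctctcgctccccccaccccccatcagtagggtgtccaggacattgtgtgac
Dll4 promoter, chr2:119325534-119325783, plus strand, a class C site: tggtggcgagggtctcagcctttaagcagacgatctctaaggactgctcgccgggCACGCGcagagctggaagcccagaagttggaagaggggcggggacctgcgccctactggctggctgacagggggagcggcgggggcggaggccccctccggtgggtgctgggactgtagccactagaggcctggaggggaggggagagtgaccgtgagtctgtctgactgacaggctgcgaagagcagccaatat
Nrarp promoter, chr2:25180508-25180757, plus strand, an E-box and the SOX motif on the reverse strand: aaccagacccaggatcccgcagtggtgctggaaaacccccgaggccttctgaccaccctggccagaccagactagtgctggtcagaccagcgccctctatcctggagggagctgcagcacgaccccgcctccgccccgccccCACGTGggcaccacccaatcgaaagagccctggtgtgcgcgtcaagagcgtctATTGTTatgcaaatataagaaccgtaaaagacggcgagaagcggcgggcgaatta
Hey2 promoter, chr10:30842784-30843033, minus strand, the RBPJ motif on the reverse strand: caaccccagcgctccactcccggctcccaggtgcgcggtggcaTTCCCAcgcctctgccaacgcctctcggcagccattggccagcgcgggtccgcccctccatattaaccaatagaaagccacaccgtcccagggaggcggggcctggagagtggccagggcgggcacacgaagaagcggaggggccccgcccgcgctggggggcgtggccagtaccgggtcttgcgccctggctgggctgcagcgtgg

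Among all 32851 promoter entries cut to the same length, 21.6% held the RBPJ motif, 12.03% the ETS motif, 9.42% the SOX motif, 6.02% the E-box and 7.62% the class C site. Of the 9 entries of the 8 genes, 1 held the RBPJ motif (Hey2), 0 the ETS motif, 1 the SOX motif (Nrarp), 1 the E-box (Nrarp) and 3 the class C site (Dll4, Jag1 and 1 entry of Dll1). A match describes these letters in these windows and nothing more.

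The authors called peaks in each library separately. Lists held 19464 to 144197 peaks from 10139069 to 59082479 tags, and they covered 9.56 to 24.9 Mb in adult endothelium, 11.9 to 44.8 Mb at P6 and 17.9 to 65.8 Mb at E12, against 11.3 to 46.8, 18.1 to 66.5 and 52.5 to 80.8 Mb in the input of the same ages. Because covered length moved with both age and cell source, a gene's level is given below as peak bases in its window per 1000000 peak bases of the library, written ppm. Windows differ in length and content, so levels are compared between libraries and never between genes. The summed level of the 6 endothelial genes was higher in endothelium: medians were 1720 against 822 in adults, 1649 against 776 at P6 and 1194 against 629 at E12. The labelled cell source therefore showed in its own marker windows. A short list, E12 heart endothelial replicate 3, shared little of its covered length with the other libraries of its group (Jaccard index 0.239 with replicate 1, which shared 0.696 with replicate 2). Other libraries stood apart in a like way. P6 brain endothelial replicate 1 shared 0.272 and 0.296 with the others of its group, which shared 0.560 with each other. P6 brain input replicate 1 shared 0.327 and 0.317, where the others shared 0.571. The same held for P6 kidney input replicate 1 (0.3975 and 0.403, the others 0.625) and P6 retina input replicate 2 (0.363 and 0.351, the others 0.624). Nothing in the labels says which libraries came from separate animals, so p-values measure the spread between these libraries.

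Among the ligands, Dll4 (chr2:119325784-119335666), the main endothelial Delta ligand, had more open bases around it in endothelium than in input at every age. At E12 its window held 129, 178 and 212 ppm (lowest, median and highest of 11) in endothelium against 70.0, 82.0 and 83.1 in the 3 inputs. At P6 the values were 179, 254 and 327 against 55.1, 135 and 186. In adults they were 159.5, 319 and 501 against 93.4, 202 and 248. The groups did not overlap at E12 and overlapped at the other ages, but within each organ of each age every endothelial library lay above every input library. The difference, on the scale log2(value + 10) that is used for every window difference here, was 1.07 ± 0.11 (SE) at E12, 0.89 ± 0.11 at P6 and 0.77 ± 0.11 in adults. It passed the test at each age (limma with organ as a term, Benjamini-Hochberg adjusted p over all genes of 1.46e-05, 4.75e-07 and 0.000110, called under 0.05). In libraries of many nuclei, a larger share of nuclei with an open site and a site open more often in each nucleus cannot be told apart. The Dll4 window also holds Rhov, Vps18, Chac1 and Ino80.

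Jag2 (chr12:112907803-112929812), a Jagged ligand, was also higher in endothelium at each age. Its window held 178, 290 and 403 ppm in adult endothelium against 110, 174 and 237 in input, with an overlap between the groups. The difference was 0.65 ± 0.09 in adults (limma, adjusted p = 9.41e-05), 0.59 ± 0.11 at P6 (0.000128) and 0.45 ± 0.15 at E12 (0.0226). At E12 the heart went the other way, by -0.11, and the brain and trunk differences were 0.89 and 0.60. The Jag2 call at E12 was lost with a window of 10 kb (0.37, limma adjusted p = 0.142), without the brain input (0.25, 0.272) and without the trunk input (0.38, 0.143), and without the short heart list it was 0.51 (0.00165).

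Jag1 (chr2:137081451-137116520), a Jagged ligand that also marks arterial endothelium, was called at P6 alone among the 3 ages. Its P6 window held 104.7, 159 and 302 ppm in endothelium against 87.0, 121 and 173 in input. The P6 difference was 0.41 ± 0.13 (limma, adjusted p = 0.00899), and it was 0.31 ± 0.12 in adults (0.0601) and 0.06 ± 0.11 at E12 (0.700). The organs differed widely within P6: brain gave 1.13 and retina 0.94, while liver gave -0.25 and lung -0.24. Without the P6 brain, where endothelial libraries came from 2 kinds of read processing, the P6 difference was 0.23 and not called (limma, adjusted p = 0.119). Dll1 (chr17:15367354-15376932), a Delta ligand best known outside vessels, was not called at any age, with differences of -0.12 ± 0.12 in adults, -0.18 ± 0.09 at P6 and -0.00367 at E12 (limma, adjusted p = 0.465, 0.0952 and 0.984).

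Both receptors had more open bases in endothelium. Notch1 (chr2:26457902-26503822), the broadly used receptor that restrains sprouting, held 149, 383 and 477 ppm in adult endothelium against 134, 247 and 345 in input. Its difference was 0.52 ± 0.12 in adults, 0.63 ± 0.14 at P6 and 0.53 ± 0.09 at E12 (limma, adjusted p = 0.00378, 0.000724 and 0.000474). At E12 the 11 endothelial libraries, from 186 to 247, lay above the 3 inputs, from 150.3 to 154, and the groups overlapped at the later ages.

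Notch4 (chr17:34564286-34588543), a receptor largely confined to endothelium, held 240, 317 and 483 ppm in adult endothelium against 122, 198 and 351 in input. The difference was 0.64 ± 0.13 in adults, 0.45 ± 0.10 at P6 and 0.72 ± 0.14 at E12 (limma, adjusted p = 0.00126, 0.000914 and 0.000996). A peak lay within 500 bases of the Notch4 start in 12 of 12 adult, 14 of 14 P6 and 11 of 11 E12 endothelial libraries. In input it was found in 4 of 10, 10 of 16 and 1 of 3. The promoter printed above lies in that stretch. The start peaks of Jag1 and Hey2 were present in every library of both cell sources, so there the start did not separate them. For Hey1 and Hes1 the tables used here give no strand, and a peak overlapped the gene or lay within 500 bases of it in every library. The Notch4 window holds 9 other protein-coding genes, the most of any of the 10.

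Of the targets, Hey1 (chr3:8663359-8667038), a transcriptional repressor active in arterial endothelium, held 110, 145 and 354 ppm in adult endothelium against 25.7, 93.2 and 121 in input. The difference was 0.83 ± 0.15 in adults, 0.64 ± 0.09 at P6 and 0.65 ± 0.11 at E12 (limma, adjusted p = 0.000774, 4.94e-06 and 0.000350). In the adult, endothelial libraries lay above input in each organ, and the P6 kidney was the exception at that age, with a difference of -0.00361. Nrarp (chr2:25180758-25183339), which destabilises the Notch intracellular part and so damps the signal, held 163, 331 and 420 against 117, 206 and 279 in adults. Its difference was 0.63 ± 0.11 in adults, 0.61 ± 0.11 at P6 and 0.69 ± 0.11 at E12 (limma, adjusted p = 0.000531, 0.000133 and 0.000391).

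Hes1 (chr16:30065357-30067796), a repressor used by many tissues besides vessels, was called at P6 alone, and its organs pointed in opposite directions. The P6 difference was 0.56 ± 0.16 (limma, adjusted p = 0.00494), against 0.03 ± 0.16 in adults (0.909) and 0.14 ± 0.09 at E12 (0.242). In P6 brain the endothelial libraries held 256.5, 153 and 188 ppm against 25.8, 68.8 and 63.5 in input, with no overlap. In adult lung the order was turned, with 162 and 119 in endothelium against 267.5 and 202 in input. The organ difference was 1.79 in P6 brain and 1.16 in adult brain, but -0.56 in adult liver and -0.70 in adult lung. Hey2 (chr10:30832359-30842783), the partner of Hey1, was called at no age, with 0.37 ± 0.15 in adults, 0.01 ± 0.10 at P6 and 0.10 ± 0.15 at E12 (limma, adjusted p = 0.0623, 0.971 and 0.627).

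**Figure D1:**
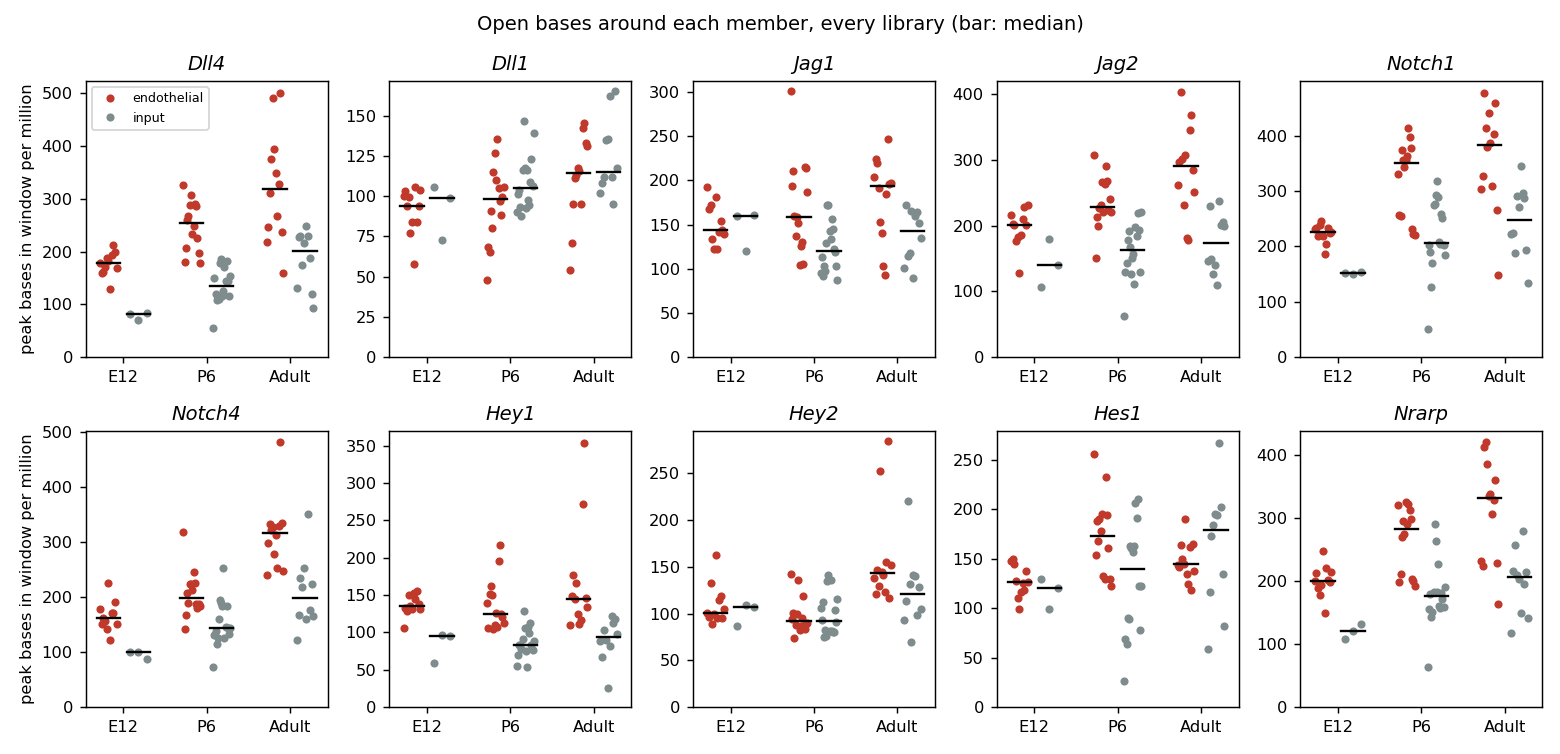
Peak bases in the window per 1000000 peak bases of the library (ppm, vertical axis, linear) in the window of each gene, for every ATAC-seq library, by age. Points are libraries, colours separate endothelial from input and bars are medians. The Dll4 points of E12 endothelium, from 129 to 212, lie above the E12 inputs, from 70.0 to 83.1, while the Hey2 points of the cell sources intermingle.

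In counts, 6 of the 10 genes were higher in endothelium in adults, 8 at P6 and 6 at E12, and 0 were lower at any of these ages. Of all genes tested, 15.6% were called higher and 11.2% lower in adults, 26.2% and 16.6% at P6, and 30.5% and 7.63% at E12. The median difference of the 10 genes was 0.57, 0.58 and 0.49 at the 3 ages, against 0.07, 0.08 and 0.22 over all genes. The 6 genes called at all 3 ages were Dll4, Jag2, Notch1, Notch4, Hey1 and Nrarp. When each list was cut to as many of its top peaks, Dll4 and Nrarp kept the call at all 3 ages. Jag2, Notch1 and Notch4 then lost it in adults (0.34, 0.30 and 0.37, limma adjusted p = 0.158, 0.0573 and 0.0923) and at E12 (0.17, 0.26 and 0.14, limma adjusted p = 0.309, 0.435 and 0.619), and Hey1 at P6 (0.44, 0.190). With peaks at −log10 q of at least 5, Jag2 lost it in adults (0.27, limma adjusted p = 0.396) and at E12 (0.36, 0.188), and Hey1 in adults (0.82, 0.398). With a window of 10 kb, beside Jag2 at E12, Nrarp lost it in adults (0.68, limma adjusted p = 0.0598) and Hey1 at E12 (0.32, 0.133). Of the genes called at P6 alone, Jag1 lost the call with top peaks (0.82, limma adjusted p = 0.0974) and with stricter peaks (0.37, 0.0877), and Hes1 with the number of peaks as measure (0.20, 0.0884). When peak bases were not scaled to the library's covered length, the medians of all genes fell to -0.27, -0.22 and -0.17, and the 6 genes kept their sign but lost the call, with the exception of Dll4 at P6 (0.52, limma adjusted p = 0.00110). On that unscaled measure Dll1 (-0.48) and Hey2 (-0.32) were called lower at P6, and Hey2 turned from its scaled value.

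The endothelial-input difference itself did not pass a test of change between P6 and adult for any of the 10 genes (limma interaction term, 0 called, 2 at an unadjusted p under 0.05). Over all genes, 0.102% were called with a larger difference in adults and 0.39% with a smaller one. Those 2 were Hes1, whose difference was smaller in adults by -0.54 (unadjusted p = 0.0315 from limma, adjusted 0.320), and Hey2, whose difference was larger by 0.36 (0.0348, adjusted 0.334). A missed threshold does not show that the differences are equal.

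**Figure D2:**
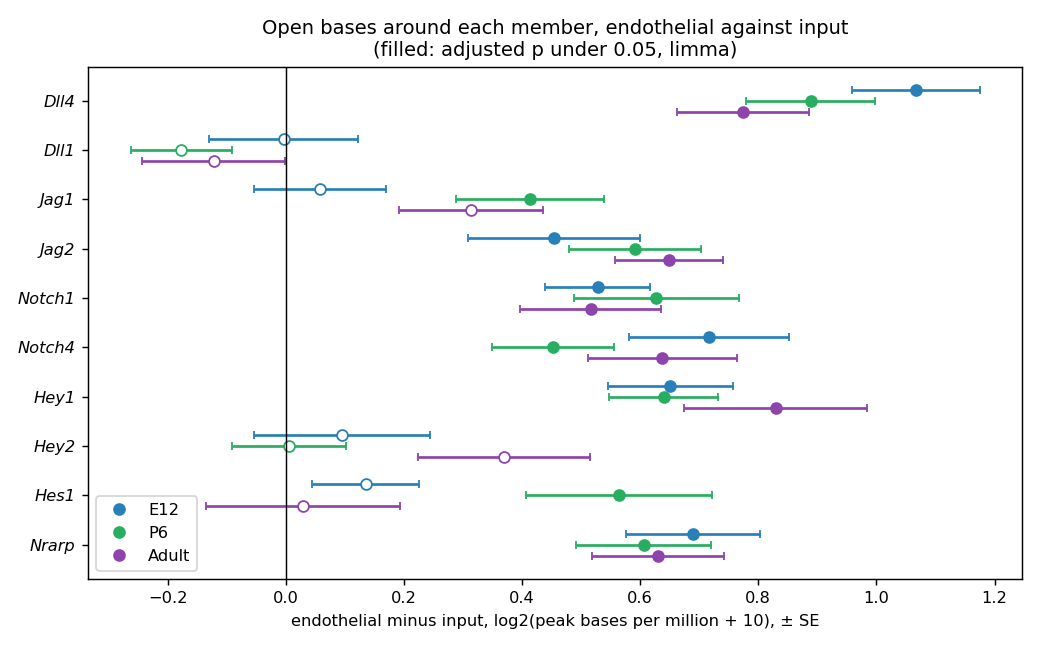
Endothelial minus input difference in log2(ppm + 10), horizontal axis, for each gene and age, with the limma estimate as a point, its SE as a bar and filled points at adjusted p under 0.05. Dll4, Jag2, Notch1, Notch4, Hey1 and Nrarp lie to the right of 0 at each age, and Dll1 sits at or left of it.

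To place the differences within the windows, the genome was divided into tiles of 500 bases, and a tile was open in a library when peaks covered at least 250 of them. The number of open endothelial libraries was tested within organ and age by an exact permutation test, adjusted over all 237804 tiles. In the 10 windows 306 tiles were tested, of which 47 were open more often in endothelium and 21 less often. That is 15.4% and 6.86%, against 7.22% and 8.91% over all tiles. These counts depended on the peaks used. They were 98 higher and 50 lower when 1 covered base made a tile open, and 33 and 7 with peaks at −log10 q of at least 5. When each list was cut to as many of its top peaks they were 28 and 5. The shares over all tiles with these settings are not given here, so these counts are not read against a background. Dll4 had 12 higher of 31 tested, Notch1 8 of 45, Jag2 8 of 35, Nrarp 7 of 29, Jag1 3 of 38, Hey1 3 of 26, Notch4 2 of 28, Dll1 2 of 21, Hes1 2 of 34 and Hey2 0 of 19. Dll1 had 5 lower, Notch1 5, Hes1 4, Dll4 2, Jag2 2, and Jag1, Hey2 and Nrarp 1 each, with 0 for Notch4 and Hey1. At Dll1, Hes1 and Hey2 more tiles were called lower than higher. The lower share was 23.8% at Dll1, 11.8% at Hes1 and 11.1% at Notch1, against 8.91% over all tiles.

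Beside Dll4, the tile chr2:119336501-119337000, 0.835 kb past the end of the gene, was open in 28 of 37 endothelial and 2 of 29 input libraries (exact permutation test, adjusted p = 4.07e-05). A second tile, chr2:119311501-119312000, 13.8 kb upstream, was open in 29 and 5 (5.76e-05, same exact test). The upstream tile was open in 11 of 11 E12 endothelial libraries and in 6 of the 12 adult ones, which were those of heart, kidney and liver. A tile closer to the start, chr2:119322501-119323000, 2.78 kb upstream, went the other way, open in 4 endothelial and 11 input libraries (exact permutation test, adjusted p = 0.0103). The 4 came from P6 brain and retina, and the 11 were all 3 E12 inputs and inputs of brain and retina.

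At Notch1 a tile 22.7 kb upstream, chr2:26526501-26527000, was open in 26 endothelial and 4 input libraries (exact permutation test, adjusted p = 5.50e-05). It was open in 11 of 11 endothelial libraries at E12, 14 of 14 at P6 and 1 of 12 in adults, and in 0, 4 and 0 input libraries. A tile inside the gene, chr2:26491001-26491500, was open in 26 and 4 as well (0.000167, exact test). At Notch4 the 2 tiles called higher were adjacent, and the one that holds the gene start, chr17:34564001-34564500, was open in 37 of 37 endothelial and 12 of 29 input libraries (exact permutation test, adjusted p = 5.80e-05).

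Of the 8 Jag2 tiles open more often in endothelium, 3 lay inside the gene and 5 outside it, and the 2 named here, with the smallest p, lay inside. The tile chr12:112917501-112918000 was open in 29 endothelial and 5 input libraries (exact permutation test, adjusted p = 6.85e-05), and chr12:112914501-112915000 in 22 and 2 (0.000143, exact test). The second was open in 9 of 11 endothelial libraries at E12, 13 of 14 at P6 and 0 of 12 in adults. Nrarp had tiles 16.8 kb upstream at chr2:25163501-25164000, open in 29 and 5, and 34.8 kb upstream at chr2:25145501-25146000, open in 33 and 10 (exact permutation test, adjusted p = 0.000112 and 0.000126).

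Hey1 had a tile at chr3:8643001-8643500, 19.9 kb from the gene on its lower-coordinate side, open in 20 endothelial libraries and in 0 of 29 input libraries (exact permutation test, adjusted p = 0.000425). Its open libraries were 10 of 11 at E12, 8 of 14 at P6 and 2 of 12 in adults. At P6 all 8 came from brain, heart and retina, with none from kidney, liver or lung. Jag1 had a tile inside the gene, chr2:137110001-137110500, open in 18 and 2 (0.00864, exact test). Hes1 had chr16:30103001-30103500, 35.2 kb past the gene on its higher-coordinate side, open in 21 and 4 (0.00548, exact test), and Dll1 a tile inside the gene, chr17:15373001-15373500, open in 21 and 3 (0.000557, exact test). At both genes the tiles called lower, 4 at Hes1 and 5 at Dll1, outnumbered those called higher, 2 at each. Hey2 had no tile called higher and 1 called lower, chr10:30786001-30786500 inside the neighbouring gene Ncoa7, open in 0 endothelial and 9 input libraries (exact permutation test, adjusted p = 0.0150). The upstream Notch1 tile, the second Jag2 tile and the Hey1 tile were open in few or none of the adult endothelial libraries. Those libraries also covered the fewest bases, whose part in this was not tested.

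Of the tiles named here, those of Dll1, Notch4 and Nrarp, the upstream Dll4 tile called higher and the Notch1 tile inside the gene kept their call with stricter peaks and with top peaks alone. With stricter peaks the call was lost by the first Jag2 tile (exact permutation test, adjusted p = 0.183), the Hey1 tile (0.0660) and the Hes1 tile (0.181), and the Hey2 tile was open in too few libraries to be tested. With top peaks alone it was lost by the Dll4 tile past the gene end (exact permutation test, adjusted p = 0.110), both Jag2 tiles (0.180 and 0.0566) and the Jag1 tile (0.0623). There the Dll4 tile called lower, the upstream Notch1 tile and the tiles of Hey1, Hes1 and Hey2 were open in too few libraries to be tested.

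**Figure D3:**
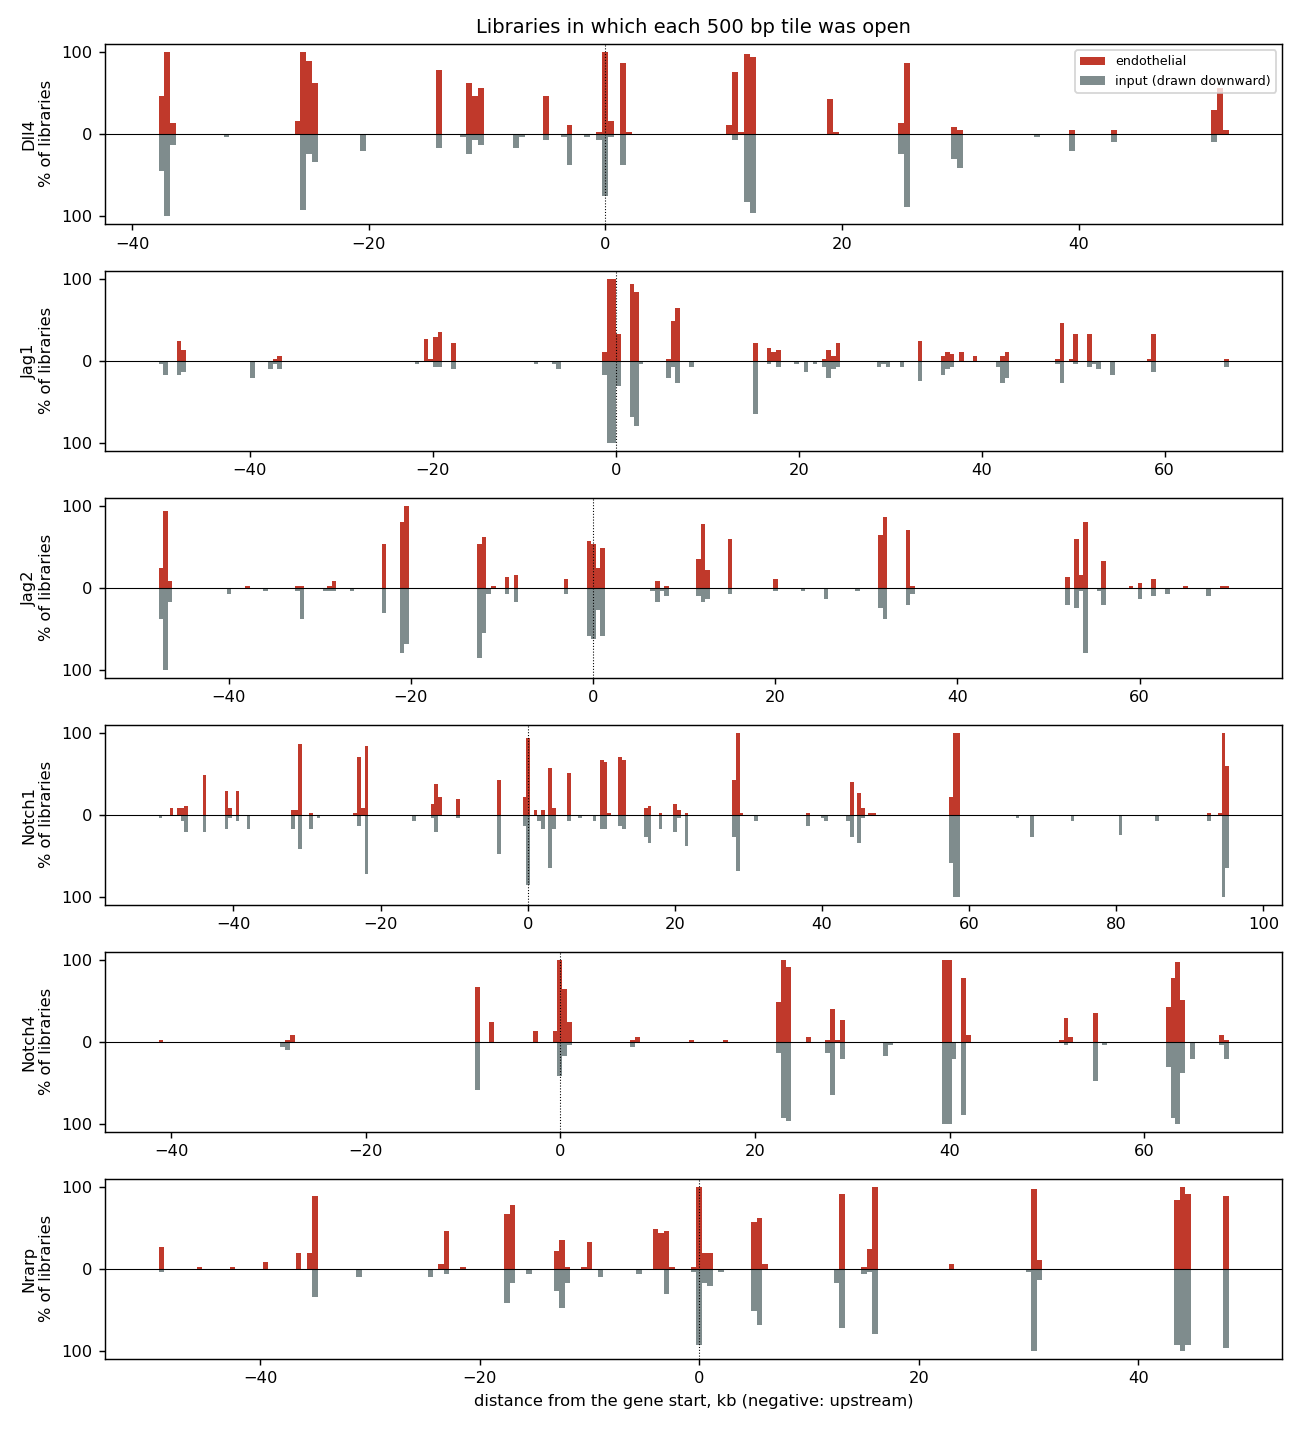
Percent of libraries in which each 500-base tile was open (vertical axis, endothelial upward and input drawn downward) by distance in kb (horizontal axis) from the gene start, for Dll4, Jag1, Jag2, Notch1, Notch4 and Nrarp. At the Notch4 start the endothelial bar reaches all 37 libraries and the input bar 12 of 29, and beside Dll4 endothelial bars stand over short input bars on both sides of the gene.

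Within endothelium, the windows were compared between ages, using endothelial libraries that also entered the comparisons with input. From P6 to adult, Hey2 was higher by 0.60 ± 0.10, Notch4 by 0.56 ± 0.10 and Dll4 by 0.26 ± 0.10 (limma with organ as a term, adjusted p = 9.93e-05, 0.000125 and 0.0246). Hey2 went from 73.5, 92.0 and 142 ppm at P6 to 117, 143 and 285 in adults, and the ranges overlapped. Notch4 went from 142, 198 and 319 to 240, 317 and 483. The other 7 genes were not called. The Dll4 call was lost without adult lung endothelial replicate 2 (0.22, limma adjusted p = 0.0510). These 3 of 10 stand against 36.4% of all genes called higher and 17.9% lower, so the share of the members was near the background. The direction depends on the scale: with unscaled peak bases, where the median of all genes was -0.58, the differences were -0.21 for Hey2, -0.29 for Notch4 and -0.58 for Dll4.

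From E12 to P6, in brain and heart, Dll4 was higher by 0.54 ± 0.14, Hes1 by 0.50 ± 0.13 and Notch1 by 0.47 ± 0.12 (limma with organ as a term, adjusted p = 0.0411, 0.0373 and 0.0369), and the other 7 were not called. Of all genes, 2.81% were called higher and 3.62% lower. Those shares moved with single libraries. Without E12 heart replicate 3, 2000 of 19689 genes were higher and 1594 lower, and without P6 heart replicate 2, 27 and 150 of 19738. With any of 8 of the 12 libraries left out 0 of the 3 were called; these were the 3 E12 brain, E12 heart replicates 1, 2 and 4 and both P6 heart libraries. With unscaled peak bases the differences were -0.15, -0.19 and -0.22, under a median of -0.52 for all genes.

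The organs were compared within endothelium. In adult endothelium 7 of 10 were called in a test over the 6 organs (limma F-test, Benjamini-Hochberg), where 52% of all genes were, and at P6 6 of 10, where 42% were, so the share among the members was not far from the background. The P6 background moved with 1 library: without P6 brain endothelial replicate 1, 15717 of 19293 genes were called, against 8101 of 19301. Jag1, Nrarp, Notch1, Hey1 and Dll1 were called at both ages. Reads had been processed in 4 ways, judged by what the peak file headers call their input, and heart had a way to itself, so organ and processing cannot be told apart there. The P6 calls of Nrarp and Hes1 each held in only 2 of the 14 fits that left out a library, and with unscaled peak bases 1 of the 10 genes, Jag1, was called in adults and 0 at P6. On that measure 10520 of 18093 genes were called in adults and 2075 of 19301 at P6, so the adult share of the members lay under that of all genes.

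Hey1 stood highest in lung. Its adult lung endothelial libraries held 272 and 354 ppm and the other adult organs from 110 to 177, without overlap, and at P6 lung held 195 and 217 and the others 104.9 to 162 (limma F-test, adjusted p = 0.00274 in adults and 0.00712 at P6). The P6 call was lost without lung replicate 2 (0.0616, limma F-test). Lung input held 113 and 121 in adults and 99.1 to 112 at P6. Jag1 was low in liver endothelium, with 93.3 and 104 in adults, where kidney, the next organ, held 140.3 and 153, and with 104.7 and 125.3 at P6 (limma F-test, adjusted p = 0.00186 and 0.00345). At P6 lung, with 106 and 130, lay beside liver, and brain held 193, 210 and 302.

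Notch1 was low in retina, and Nrarp in retina and brain. Adult retina held 149 and 265 ppm for Notch1 and adult heart 414 and 477, and P6 retina held 220.1, 222 and 232 against 378 and 397 in P6 lung (limma F-test, adjusted p = 0.0120 and 0.00221). For Nrarp, adult retina held 163 and 229, adult brain 224 and 231, and the other adult organs from 306 to 420.3 without overlap (limma F-test, adjusted p = 0.00198, and 0.0429 at P6). Dll4 was called in adults alone, with 160 and 237 in retina, 219 and 247 in brain and 394 and 491 in kidney (limma F-test, adjusted p = 0.0123). Jag2 was called in adults alone as well, with 178 and 181 in liver against 345 and 368 in lung (0.00870, limma F-test). Retina and brain are organs with barrier endothelium, but the adult inputs ran in a similar order. The means that follow are on the scale used for window differences. Adult Dll4 input was 6.857 in retina, 7.135 in brain (1 library) and 7.721 to 7.918 in the other organs. Adult Nrarp input was 6.988 in brain, 7.523 in retina and in liver, and 7.814 to 7.928 in heart, kidney and lung. Adult Jag2 input was lowest in liver, at 7.066. The part of this order in the endothelial values was not tested. The adult retina inputs held 134 and 193 ppm for Notch1, the lowest median of the adult inputs, while P6 retina inputs, from 184 to 252, lay above those of P6 heart, 127 and 170.1. Dll1 was lowest in brain endothelium at both ages, with 54.2 and 70.8 in adults and 47.7, 65.3 and 68.7 at P6 (limma F-test, adjusted p = 0.00755 and 0.00584), and the adult call was lost without brain replicate 1 (0.0573, limma F-test).

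Over the 15 organ and age groups of endothelium, the window values of Notch1 and Nrarp ran together (Pearson r = 0.954, a description of group means that share libraries and covered length), as did those of Dll4 and Nrarp (0.916) and Dll4 and Notch1 (0.884). These were the highest of the member pairs, and the lowest were Dll1 with Jag1 (-0.233), Jag1 with Nrarp (-0.217) and Notch1 with Jag1 (-0.198). Notch1 and Nrarp lie on the same chromosome, with windows that do not overlap. Among 20186 to 20202 genes whose windows did not overlap the member's own, the nearest patterns to Dll4 were Ak1 (r = 0.965), St6galnac6 (0.959) and Amotl2 (0.954), and to Nrarp they were Fam53b (0.965), Mrpl4 (0.963) and Flt1 (0.956). Notch1 was nearest to Mrpl4 (0.965), Hey1 to Tmem165 (0.874), Jag1 to Ints4 (0.895) and Hes1 to Scgb1a1 (0.800), each over the same 15 groups. The highest value for any member was that of Notch4 with Gapdh (0.988). Values as high as those between members were thus also reached with genes outside the pathway lists.

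In the brain cells, levels are UMIs per 10,000 UMIs summed over the endothelial barcodes of a library, with exact Poisson 95% intervals that cover counting error only. As each age is 1 library, ages were not tested, and age, brain region, dissociation and library cannot be told apart. The deposited file of the library labelled E16.5 carries a later embryonic day in its name than the label, and the label is used here. By their barcode sequences the libraries form 2 sets, E12.5 with E16.5 and E9.5 with P8 and adult, though the labels give 1 kit, so levels across the sets differ in set as well as age, and the folds below are within a set. Depth was 7158, 10469, 9017, 8468 and 4896 UMIs per endothelial barcode (median) from E9.5 to adult. Between 46.0% and 94.9% of the endothelial barcodes held at least 2 marker genes of another cell type, mostly haemoglobin genes, and the 4 pericyte markers summed to 0.0411 per 10,000 at E9.5 and to 13.0 in the adult. For comparison, levels were also read from the barcodes with none of the 6 endothelial genes, which numbered 1118, 554, 51, 130 and 176. In the adult these held markers of pericytes and smooth muscle, so a level there can come from other cells and is not a floor. Shared barcode sequences numbered 50 between the E12.5 and E16.5 libraries, 31 between E9.5 and adult, 29 between E9.5 and P8, 8 between P8 and adult and at most 3 for any other pair.

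Dll4 was higher at each later embryonic age and lower after birth. Its level was 0.147 (0.136 to 0.158) at E9.5, 0.624 (0.607 to 0.642) at E12.5, 1.20 (1.17 to 1.24) at E16.5, 0.802 (0.779 to 0.824) at P8 and 0.343 (0.320 to 0.368) in the adult. None of these intervals overlapped. In barcodes with none of the 6 endothelial genes it was 0.048, 0.0207, 0.107, 0.332 and 0 (0 UMIs in the adult, which allows up to 0.0637).

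The Jagged ligands took another course. Jag2 was higher at each later age, at 0.0227 (0.0186 to 0.0276), 0.0699 (0.0643 to 0.0760), 0.113 (0.103 to 0.123), 0.319 (0.305 to 0.333) and 0.851 (0.814 to 0.889), and again no interval overlapped the next. In barcodes without the 6 endothelial genes it was 0.00901 (0.00186 to 0.0263), 0.00778, 0, 0.0765 and 0.0863, so the intervals overlapped at E9.5 and at E16.5, where 0 UMIs allow up to 0.131, and at the other 3 ages the endothelial level stood above. Jag1 was at 0.0665 (0.0592 to 0.0744), 0.393 (0.379 to 0.406), 0.997 (0.967 to 1.03), 0.411 (0.395 to 0.428) and 0.863 (0.825 to 0.901). Its intervals at E12.5 and P8 overlapped, and E16.5 and the adult were high. The Jag1 level at E9.5 equalled that of the barcodes without the 6 endothelial genes, 0.0661 (0.0414 to 0.09999). Dll1 lay between 0.0121 and 0.0409 at all 5 ages, from 64 to 226 UMIs a library, with 0.0180 at E9.5 in barcodes without the endothelial genes.

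The receptors were highest in the adult. Notch1 was at 0.663 (0.639 to 0.687), 0.789 (0.769 to 0.808), 1.04 (1.01 to 1.07), 1.66 (1.63 to 1.69) and 2.17 (2.11 to 2.23), higher at each later age. Notch4 was at 0.233 (0.219 to 0.247), 0.314 (0.302 to 0.327), 0.401 (0.383 to 0.421), 0.345 (0.331 to 0.361) and 0.964 (0.925 to 1.01). Its adult level stood apart from the other 4 ages. In barcodes without the 6 endothelial genes, adult Notch1 was 0.794 and adult Notch4 0.121, from barcodes where pericyte and smooth muscle markers stood at 33.4 per 10,000 each.

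Among targets, Hes1 was highest in the library labelled E16.5. It was at 0.261 (0.247 to 0.277) at E9.5, 0.971 (0.949 to 0.993) at E12.5, 9.24 (9.15 to 9.34) at E16.5, 2.70 (2.65 to 2.74) at P8 and 2.44 (2.38 to 2.51) in the adult. At E16.5, 94.9% of endothelial barcodes held a Hes1 UMI, and 53.5% (exact binomial interval 51.9 to 55.1) after each barcode was thinned to 1000 UMIs, against 9.12% (8.43 to 9.86) at E12.5. Barcodes without the endothelial genes held 0.294, 0.645, 1.10, 2.02 and 1.95, so endothelial Hes1 at E9.5 did not stand above them. At P8 and in the adult the endothelial intervals lay above those of these barcodes, 1.60 to 2.51 and 1.61 to 2.35.

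Hey1 was at 0.240 (0.226 to 0.254), 0.599 (0.583 to 0.616), 1.31 (1.28 to 1.35), 0.580 (0.561 to 0.600) and 0.768 (0.733 to 0.804), with E16.5 highest and overlapping intervals at E12.5 and P8. Hey2 stayed between 0.0250 and 0.0748 per 10,000, and its summed level did not stand above that of the barcodes without the endothelial genes. The intervals overlapped from E9.5 to E16.5, and at P8 and in the adult the latter were higher, at 0.230 and 0.242. Nrarp was at 0.187 (0.175 to 0.200) at E9.5, 1.46 (1.43 to 1.49) at E12.5, 1.64 (1.60 to 1.68) at E16.5, 0.814 (0.791 to 0.837) at P8 and 0.199 (0.181 to 0.218) in the adult. Its embryonic levels after E9.5 were high, and the adult level lay under that of the barcodes without the endothelial genes, 0.380 (0.238 to 0.575).

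**Figure D4:**
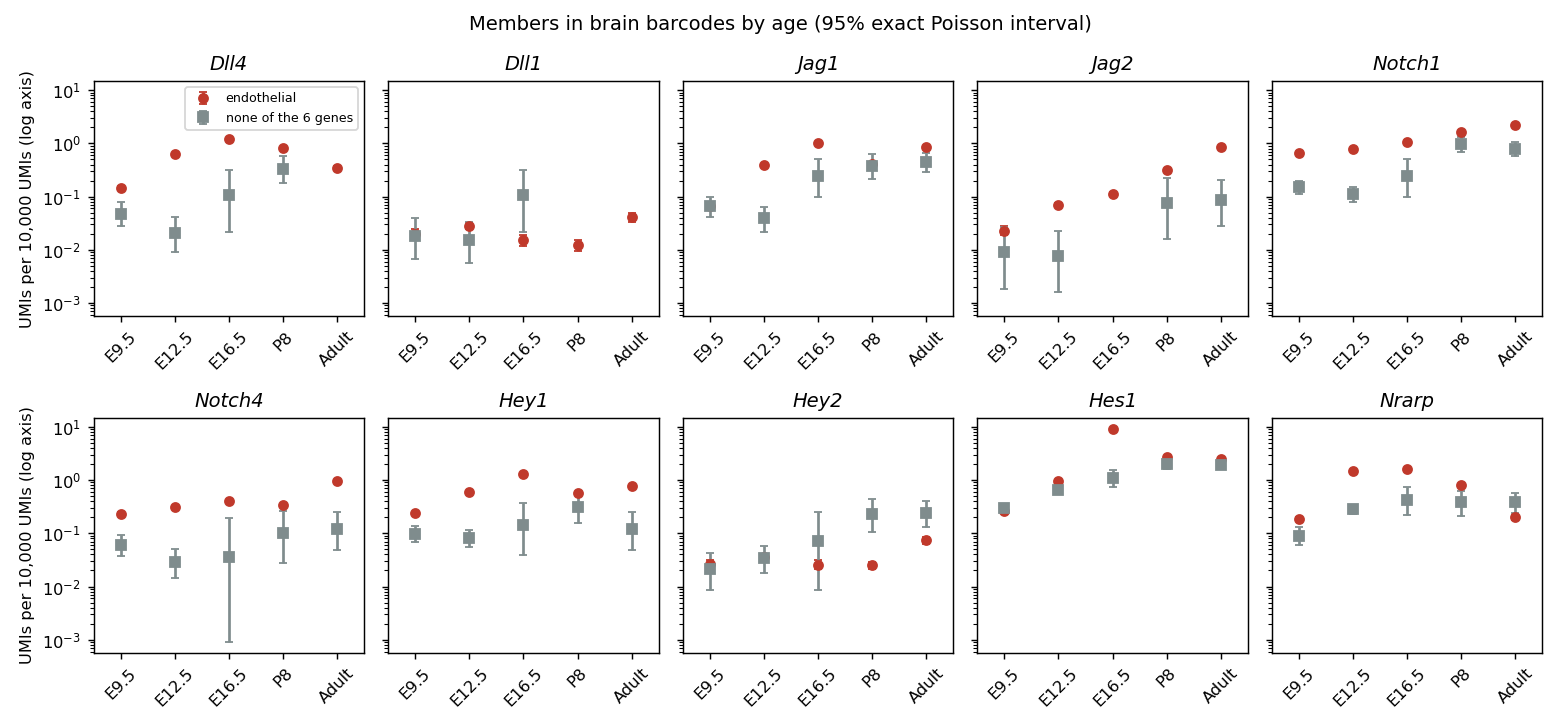
UMIs per 10,000 UMIs (vertical log axis) for each gene by age, summed over endothelial barcodes and over barcodes with none of the 6 endothelial genes, with exact Poisson 95% intervals and 1 library per age. Dll4, Jag1, Hey1, Hes1 and Nrarp are highest at E16.5, while Notch1 and Jag2 are higher at each later age. The E12.5 and E16.5 libraries are of another barcode set than the other ages.

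Taking a 2-fold difference as the mark, 9 of the 10 genes were higher in the adult than at E9.5, where 35% of all genes were and 25.5% were lower. Jag2 differed 37.4-fold (30.7 to 46.0), Jag1 13.0-fold (11.5 to 14.7), Hes1 9.35-fold, Notch4 4.15-fold, Notch1 3.27-fold, Hey1 3.21-fold, Hey2 2.85-fold, Dll4 2.34-fold and Dll1 2.03-fold. Of these, Hey2, Dll1, Jag1, Jag2 and Hes1 had E9.5 levels whose intervals overlapped those of the barcodes without the endothelial genes. Nrarp alone stayed under the mark, at 1.06-fold (0.947 to 1.19). At P8, 7 were over 2-fold above E9.5, against 30.6% of all genes and 21.3% below, and these comparisons share the E9.5 library.

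From P8 to adult, both in cortex, Dll4 was 2.34-fold lower and Nrarp 4.10-fold lower, while Notch4 was 2.79-fold, Jag1 2.099-fold, Jag2 2.67-fold, Hey2 2.996-fold and Dll1 3.38-fold higher, the Hey2 levels at both ages being under those of the barcodes without the endothelial genes. Of all genes 18.9% were that much higher and 15.7% lower. From E12.5 to E16.5, both in whole embryonic brain, Hes1 was 9.52-fold (9.29 to 9.76), Jag1 2.54-fold and Hey1 2.19-fold higher, and 0 of 10 lower, against 12% higher and 15.4% lower over all genes.

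Endothelial barcodes were then split by lists that hold no member: arterial (Gja4, Gja5, Bmx, Sema3g, Efnb2, Gkn3, Vegfc), venous (Nr2f2, Slc38a5, Vwf, Ackr1, Vcam1, Ephb4) and tip (Apln, Esm1, Angpt2, Kcne3, Trp53i11, Plaur, Pgf). A class needed at least 2 detected genes of its list and fewer than 2 of each other list. Barcodes that met more than 1 list were left out, 445, 2709, 1782, 1776 and 490 from E9.5 to adult. Depth differed between classes. At E9.5 the median was 6780 UMIs in arterial, 10189 in venous and 8567 in tip barcodes and 6287 in those of no class. The arterial median was under the venous one at each age. UMIs were summed per library and class, and the 5 libraries served as replicates that differ in age. Arterial-like barcodes numbered 1057, 334, 244, 306 and 387 from E9.5 to adult, and venous-like barcodes 473, 858, 799, 1156 and 875.

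Hey1 separated these classes most widely of the 10. Its arterial levels were 0.639, 1.88, 3.73, 2.51 and 1.72 per 10,000 UMIs from E9.5 to adult, and its venous levels 0.0406, 0.154, 0.591, 0.255 and 0.0918. Each arterial level was above every venous level. The ratio within a library was 15.7, 12.2, 6.31, 9.85 and 18.7, and the fitted difference 3.43 ± 0.22 on the log2 scale, or 10.8-fold (edgeR quasi-likelihood test, Benjamini-Hochberg adjusted p = 0.000253).

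Among the genes that passed the test, Dll4 was next, at 0.331, 1.38, 1.89, 1.19 and 0.525 in the arterial class and 0.0295, 0.302, 0.672, 0.536 and 0.139 in the venous class. It was higher in 5 of 5 libraries, with a log2 difference of 1.84 ± 0.27 (edgeR, adjusted p = 0.00803), and its ratio ran from 11.2 at E9.5, where the venous sum held 16 UMIs, to 2.22 at P8. Jag1 (1.26 ± 0.17, adjusted p = 0.00603), Jag2 (1.16 ± 0.14, 0.00359), Notch4 (1.03 ± 0.18, 0.0159) and Notch1 (0.83 ± 0.10, 0.00334) were also higher in the arterial class in 5 of 5 libraries by the same edgeR test. The Notch4 call was lost without the E16.5 library (0.96, edgeR adjusted p = 0.0699) and without the P8 library (1.05, 0.0510). Jag1 reached 2.70 in the arterial class at E16.5, against 0.687 in the venous class.

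Hey2 was not called, at 1.94 ± 0.53 with 4 of 5 libraries higher (edgeR, adjusted p = 0.0600), and its sums were small, from 3 to 53 UMIs in the arterial class. DESeq2 called it (1.95, adjusted p = 0.0203). Nrarp (0.60 ± 0.23, edgeR adjusted p = 0.130), Hes1 (0.34 ± 0.12, 0.111) and Dll1 (-0.08 ± 0.31, 0.903) were not called. In counts 6 of 10 were higher and 0 lower, where 4.91% of all 11182 genes tested were higher and 3.57% lower. Those shares fell without 1 of 3 libraries: without E16.5, 186 of 11353 genes were higher and 52 lower. Without E12.5 these were 230 and 75 of 11191, and without P8 256 and 72 of 11231. The median over the 10 was 1.10 on the log2 scale, against -0.04 over all genes.

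Markers of other cells moved with the classes. The 3 smooth muscle markers summed to 3.78, 0.431, 0.0558, 0.0453 and 1.01 per 10,000 in the arterial class and to 0.528, 0.159, 0.00668, 0.0173 and 0.385 in the venous class. The 4 genes of the neuron list summed to 0.962 to 6.20 in the arterial class and 0.0243 to 0.254 in the venous class, with 1 of the 4 detected in the arterial class at P8. Pericyte markers were higher in the venous class in 4 of 5 libraries. With barcodes that held 2 or more markers of another cell type left out, the same 6 genes were called.

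**Figure D5:**
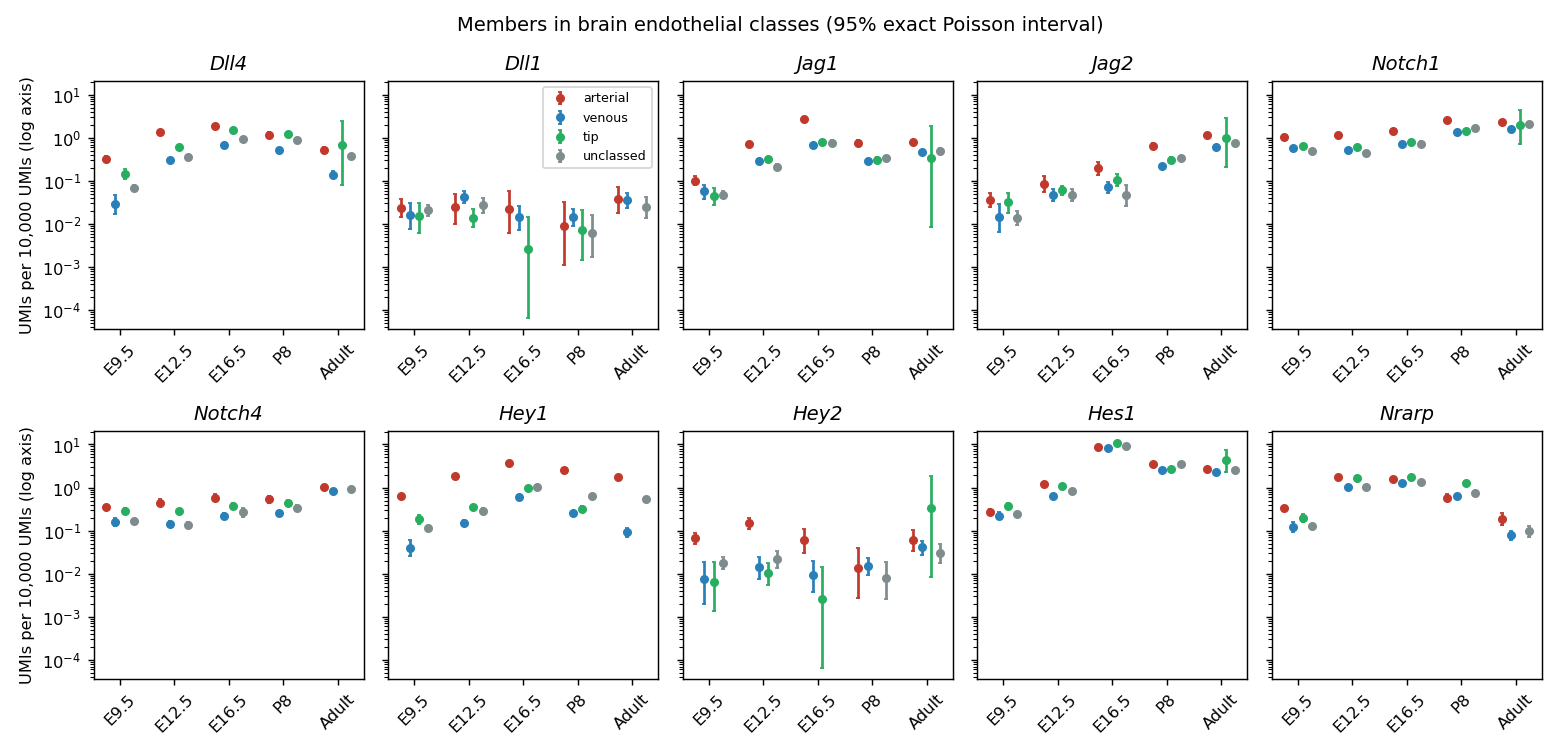
UMIs per 10,000 UMIs (vertical log axis) for each gene by age in the arterial, venous, tip and unclassed endothelial barcodes, with exact Poisson 95% intervals. The arterial Hey1 points, from 0.639 to 3.73, lie above the venous ones, from 0.0406 to 0.591, at each age.

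Tip-like barcodes were compared with unclassed ones, which had fewer than 2 genes of every list. They numbered 474, 1269, 482 and 508 from E9.5 to P8 and only 6 in the adult, where smooth muscle markers reached 69.8 per 10,000 in those 6. Dll4 was at 0.146, 0.600, 1.503, 1.24 and 0.671 in the tip class against 0.0701, 0.369, 0.956, 0.875 and 0.377 in the unclassed, higher in 5 of 5 libraries by 0.66 ± 0.09 on the log2 scale (edgeR quasi-likelihood test, adjusted p = 0.000555). The adult tip value rests on 2 UMIs. Nrarp was higher by 0.62 ± 0.09 (edgeR, adjusted p = 0.000863), at 0.194, 1.67, 1.80 and 1.29 from E9.5 to P8 against 0.130, 1.03, 1.32 and 0.739, and it had 0 UMIs among the 6 adult barcodes.

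Notch4 was higher in 4 of 5 libraries by 0.63 ± 0.16 (edgeR, adjusted p = 0.0280). DESeq2 did not call it (0.44, adjusted p = 0.898), and the call was lost without the E12.5 library (0.49, edgeR adjusted p = 0.0978). Notch1, Jag1, Jag2, Hey1 and Hes1 were tested and not called, with differences from -0.09 for Hey1 to 0.30 for Jag2, and Dll1 and Hey2 had too few UMIs to be tested. The 3 of 8 called higher, with 0 lower, compare with 2.91% and 2.64% of the 10644 genes tested. Hey1 was at 0.322 in the P8 tip class and 0.631 in the unclassed, but at 0.183 and 0.112 at E9.5.

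The wider pathway was followed through a list of 35 genes: receptors, ligands, sugar transferases, ubiquitin ligases, proteases, nuclear partners, regulators and the targets Heyl and Hes5. In adults 6 windows were higher in endothelium and 5 lower, at P6 15 and 4, and at E12 13 and 2 (limma, the same fits as above). Of all genes 15.6% and 11.2%, 26.2% and 16.6%, and 30.5% and 7.63% were called, so the adult shares and the E12 share called higher were near the background. The median difference was 0.09, 0.18 and 0.25, against 0.07, 0.08 and 0.22 over all genes. The Fringe transferases Lfng and Mfng, which add a sugar that alters ligand choice, were higher at all 3 ages: Mfng by 0.88, 0.80 and 0.89 and Lfng by 0.88, 0.60 and 0.43 in adults, P6 and E12 (limma, adjusted p from 3.60e-05 to 0.0147). Numb, an inhibitor of Notch, and Poglut1, a glucosyltransferase, were also higher at all 3. The receptors Notch3, typical of mural cells, and Notch2 were lower in adults (-1.21 and -0.77) and at P6 (-0.68 and -0.76), and at E12 not called (-0.31 and -0.33). Rbpj was lower at P6 (-0.39) and E12 (-0.63; limma, adjusted p = 0.000381 and 0.000942).

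In the brain cells, 17 of these 35 were at least 2-fold higher in the adult than at E9.5 and 4 lower, against 35% and 25.5% of all genes. Lfng was at 0.0433 per 10,000 at E9.5 and 0.709 in the adult, 16.4-fold higher. Notch3 was at 0.0514 and 0.594 across the same libraries, beside the pericyte markers given above, whose part in it was not tested. Between classes, 2 of 31 tested were higher in the arterial one, a share near the 4.91% of all genes: Hes5, a Notch target, in 4 of 5 libraries (2.68 ± 0.42, edgeR adjusted p = 0.0115), and Psen2, a protease subunit (0.75 ± 0.19, 0.0474). Of 29 tested between tip and unclassed, 0 were called by edgeR and 0 by DESeq2, with 2 at an unadjusted p under 0.05.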

How the data were processed

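Peaks were called by the authors with MACS2 in each ATAC-seq library without a control library, per the file headers, which also state broad regions. The build is mm10, and Bowtie2, SAMtools 1.13 and Picard are named without a role in the submitters' processing notes. The deposited peak lists give each peak's fold over the local background as a ratio and its q-value as −log10, per the file headers. The matrices of UMI counts were deposited as raw counts per gene and barcode from Cell Ranger, per the submitters' processing notes. The E16.5 rows were given the gene order of the other tables, against which its summed levels correlated at 0.975 (E12.5) and 0.977 (P8). The RNA-seq quantifications of 54 samples were not used here.

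The 10 genes and all lists were chosen with earlier results of these data known. Named genes are the 10 members, the called genes of the wider list, and for each member up to 2 called stretches higher and 1 lower and the genes of most similar window pattern. Windows were fitted with limma 3.58.1 (R 4.3.3) on log2(ppm + 10), where ppm is peak bases in the window per 1000000 peak bases of the library, over genes with a peak in at least 4 libraries, class sums with edgeR 4.0.16 (TMM, filterByExpr), and tiles with an exact test in Python 3.11.15. p-values were Benjamini-Hochberg adjusted over all features and called under 0.05. The window fits, the tile test and the class tests were each tried on simulated data, and the other steps were not. Peak heights were not compared between libraries. Doublets were not called. Barcodes with markers of another cell type were left out as an alternative instead. Other alternatives changed the pseudocount, filters, scaling, window, peak threshold, class rule and tool (DESeq2 1.42.0) and left out each library. Replicate numbers were not used to pair libraries in the main fits, as the labels do not say which libraries came from separate animals. Deviations of same-numbered libraries correlated between -0.33 and 0.29 in adults and between -0.34 and 0.25 at P6. With 2 libraries in a group both numbers give 1 value, so this cannot exclude pairing.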

Additional observations from a re-analysis of the deposited data

Results flagged for a closer look

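In E12 heart endothelium, with 4 libraries, replicate 3 stood apart from the others at 2 of the 10 genes. Its Hey2 window held 162.4 ppm (peak bases per 1000000), where the other 3 held 89.0 to 99.3, and its Jag2 window held 127.2, where the others held 177 to 185. In both cases the gap to the nearest library exceeded Dixon's limit for 4 values. Of 32 groups tested 2 were flagged, and chance flags about 1 in 20. This library had the shortest peak list of its group, with 39096 peaks covering 17.9 Mb from 10139069 tags, and the part of that in these values was not tested.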

How the results depend on the processing

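The number of libraries and the length of the peak lists limited these results, and peak lists give no read counts, so depth within a window is unknown. Scaling mattered most. Without scaling to covered length, the members called were 0 in adults, 3 at P6 (1 higher, 2 lower) and 0 at E12, 9 (all lower) from P6 to adult, 0 from E12 to P6, and 1 and 0 for organs in adults and at P6. Over all genes, unscaled calls were 85 higher and 2918 lower of 19322 in adults, 447 and 6635 of 20268 at P6, and 65 and 814 of 20081 at E12. From P6 to adult 17658 of 19549 were lower, so the 9 were near that share. From E12 to P6 737 of 19751 were called, and for organs 10520 of 18093 and 2075 of 19301. When each list was cut to as many of its top peaks, the members called were 3 in adults, 0 from P6 to adult and 1 from E12 to P6. Over all genes 2890 of 17891, 1759 of 17749 and 883 of 17318 were called. With peaks at −log10 q of at least 5 the members called were 5 from P6 to adult, 0 from E12 to P6, and 3 and 3 for organs. Over all genes 8219 of 18650, 16 of 19158, 4139 of 16867 and 3727 of 18510 were called. With a window of 10 kb the members called were 7 from P6 to adult, 0 from E12 to P6 and 2 for organs at P6. Over all genes 10087 of 17997, 698 of 18267 and 5606 of 17806 were called. With the number of peaks as measure 0 members were called from E12 to P6, against 1001 of 19751 genes. The cause was not tested.

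Directions turned as follows, on the log2 scale. Unscaled, endothelium against input gave Jag1 -0.09393, Hey2 -0.0487 and Hes1 -0.33 in adults, Hey2 -0.32 at P6, and Jag1 -0.36, Hey2 -0.32 and Hes1 -0.27 at E12. Unscaled, adult against P6 gave Notch4 -0.29, Dll4 -0.58 and Hey2 -0.21, and P6 against E12 gave Notch1 -0.22, Dll4 -0.15 and Hes1 -0.19. Dll1 turned in adults with stricter peaks (0.01884), top peaks (0.05876), number of peaks (0.03327) and the 10 kb window (0.25), at P6 with stricter peaks (0.0773), top peaks (0.26) and the 10 kb window (0.14), and at E12 with stricter peaks (0.15) and number of peaks (0.17). Hey2 turned at P6 with stricter peaks (-0.0203), top peaks (-0.24, called lower), number of peaks (-0.01969) and organs of 1 read processing (-0.01674), and at E12 with top peaks (-0.47, called lower) and the 10 kb window (-0.04726). Jag1 turned at E12 with top peaks (-0.0398) and the 10 kb window (-0.19), and Hes1 in adults with number of peaks (-0.08562). Jag1 turned between tip and unclassed without barcodes that held markers of another cell type (-0.05147). In the comparisons as reported, Hes1 and Jag1 at P6 kept their sign, and the members that turned against input were not called.

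Leaving out 1 library at a time gave 6 to 7 called members in adults, 8 to 9 at P6, 5 to 6 at E12, 0 to 0 for the interaction, 2 to 6 from P6 to adult (6 without P6 brain endothelial replicate 1 or adult liver endothelial replicate 1), 0 to 4 from E12 to P6, 6 to 8 for adult organs, 3 to 9 for P6 organs (3 without lung replicate 2), 57 to 69 tiles, 5 to 6 for arterial and 2 to 3 for tip. The number of all genes called moved too. In adults it ran from 4080 of 19259 to 6369 of 19301 and at P6 from 7987 of 20264 to 8959 of 20237. At E12 it ran from 3627 of 19976 to 10174 of 19997. From P6 to adult it ran from 9898 of 19532 to 11961 of 19545, the latter without P6 brain endothelial replicate 1. For P6 organs it ran from 5826 of 19213 to 15717 of 19293. For the interaction, tiles, adult organs and tip class the background is not given here. Values that turned ranged from -0.13 to 0.11 (adult Hes1), -0.0344 to 0.0511 (P6 Hey2), -0.05547 to 0.03562 (E12 Dll1), -0.0007512 to 0.15 (E12 Hey2), -0.007928 to 0.16 (E12 Jag1), -0.26 to 0.19 (arterial Dll1), -0.04934 to 0.23 (tip Jag1) and -0.23 to 0.18 (tip Hey1).

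In place of 68 tiles, 148 were called with 1 covered base enough, 40 with stricter peaks and 33 with top peaks. With the replicate number as a block, 19 tiles were called, 18 higher and 1 lower. The shares over all tiles with these settings are not given here, so these counts are not read against a background. Of the tiles named above, the Jag1, Hes1 and Hey2 tiles and the lower Dll4 tile were not called with that block. The naming rule had picked 25 tiles, not all of them printed, and 11 of the 25 kept the call. With stricter peaks 15 of the 25 kept it, and with top peaks 8, where 11 were not tested. With the replicate block 6 windows were called in adults and 8 at P6, where 3219 of 19322 and 6865 of 20268 genes were called. Adult Hes1 was -0.01331 with it. The labels do not say whether libraries of 1 number share more than that number.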
